A study of Bubalus bubalis with 8 samples.

Results

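Buffalo oocytes and parthenogenetic embryos up to the 8-cell stage were compared with embryos from the 16-cell stage to the blastocyst, gene ID by gene ID. The early side held 5 libraries, the immature oocyte with its germinal vesicle (GV), the mature oocyte at metaphase II (MII) and embryos of 2, 4 and 8 cells. The late side held 3 libraries, the 16-cell embryo, the morula and the blastocyst. Together these are all 8 libraries of the series, and there was 1 library per stage. All came from water buffalo (Bubalus bubalis), and the embryos were produced in vitro by parthenogenetic activation, in which an egg is made to develop without sperm. Every embryo therefore carried maternal chromosomes only, in the early and the late libraries alike, and there was no fertilised embryo to compare with. How many oocytes or embryos went into a library, their breed and the hours after activation are not stated in the labels. The labels' extraction text describes another tissue (retina), so it was not used to describe these libraries.

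A mammalian egg is filled with maternal RNA and protein while it grows, and its own transcription is largely silent by the time it matures. The first cleavages run on these stores. Maternal transcripts are then degraded while the embryonic genome is switched on, a change known as the maternal-to-embryonic transition. In cattle, a related bovid, the major wave of embryonic transcription is known to come around the 8-cell to 16-cell stage. The series set out to follow maternal transcripts over this period, and setting the 5 earlier libraries against the 3 later ones asks which transcripts changed level across that boundary.

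The table gave FPKM (fragments scaled by transcript length and library size) for 28659 gene IDs with no symbols. There were 18220 numbered IDs (the word gene with a number) and 10439 IDs that the authors named as new genes, called new-gene IDs here. None of the 28659 IDs (0) was found in RefSeq's gene table for buffalo assembly NDDB_SH_1, and none of 30 marker symbols of oocyte, cumulus, blastocyst, genome-activation or retina genes was among the IDs (0 found). The labelled cell types could therefore not be checked against markers, no pathway could be scored and no sequence could be assigned. IDs are described as groups, and single IDs only as examples. Of all IDs, 11650 had at least 10 FPKM in any library and were compared, 10016 numbered and 1634 new-gene IDs. Sequencing depth is unknown, and FPKM is a share of a library, so fewer transcripts per embryo and more of other transcripts cannot be told apart.

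An ID was called separated when its lowest value on one side was above its highest value on the other, so that the 5 early and 3 late libraries did not overlap. Among numbered IDs, 2673 were separated and higher early (26.7% of those compared) and 1866 were separated and higher late (18.6%). Among new-gene IDs, 952 were higher early (58.3%) and 118 higher late (7.22%). Together 45.3% of numbered and 65.5% of new-gene IDs were separated, and 5477 numbered and 564 new-gene IDs overlapped. An ID could pass the 10 FPKM minimum through its higher side alone, so these shares depend on that filter. With the GV oocyte library left out, 807 new-gene IDs were separated and higher early. Over all compared IDs the median difference on the log2(FPKM + 1) scale, late minus early, was -2.55 for new-gene and -0.11 for numbered IDs. The median gap, the distance from the lowest value of the higher side to the highest of the other on the log2(FPKM + 1) scale, was 1.17 for numbered IDs higher early and 1.09 for those higher late. It was 1.81 for new-gene IDs higher early and 1.04 for those higher late. Few separations were marginal, with a gap under 0.1 for 130, 110, 20 and 7 IDs in the same order.

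Wide gaps became less common in both directions. A gap of 2 or more log2 units, at least 4-fold on the FPKM + 1 scale, was found for 717 numbered IDs higher early (7.16%) and 487 higher late (4.86%). For new-gene IDs the numbers were 411 (25.2%) and 30 (1.84%). At a gap of 4 or more log2 units, 64 numbered IDs were higher early and 76 higher late, so the order of the directions turned. The turn rests on few IDs with FPKM as deposited, and other scalings were not examined at this gap. Among numbered IDs that reached 300 FPKM in any library, 432 were separated higher early and 575 higher late. At lower levels more were higher early. Whether level accounts for the turn was not tested. At that gap 25 new-gene IDs were higher early and 5 higher late.

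**Figure D1:**
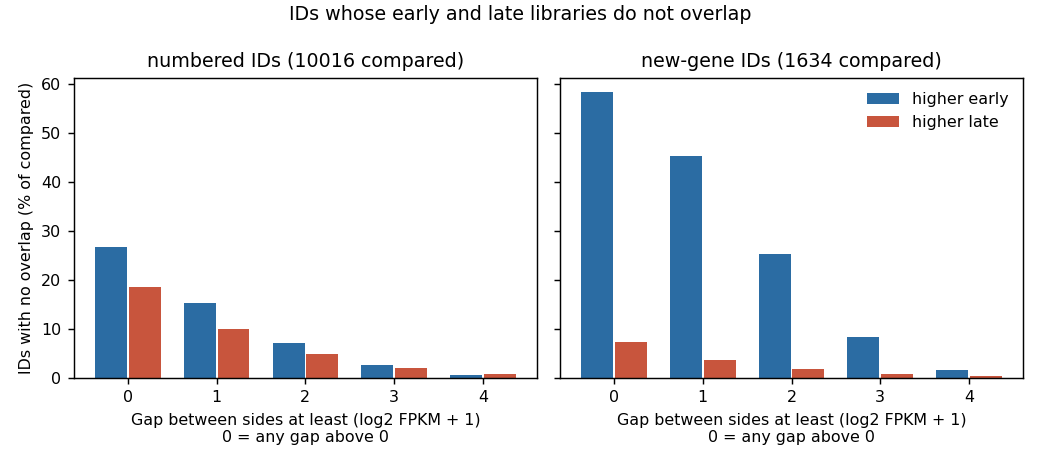
Percent of compared IDs whose early and late libraries did not overlap (y axis) by the smallest gap required on the log2(FPKM + 1) scale (x axis), for numbered and new-gene IDs, with bars for each direction. New-gene IDs higher early start at 58.3% and those higher late at 7.22%, while the bars for numbered IDs start at 26.7% and 18.6%.

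A fit across all 11650 IDs gave similar counts. It used the same 8 libraries and sides, so agreement with separation was likely in advance and is no separate evidence. limma on log2(FPKM + 1), with the stages of a side as the units, called 2817 numbered IDs higher early (28.1% of those compared) and 2248 higher late (22.4%) at a Benjamini-Hochberg adjusted p under 0.05. It called 973 new-gene IDs higher early (59.5%) and 147 higher late (9.00%). Of the separated numbered IDs, 94.1% of those higher early and 93.7% of those higher late were also called, and 96.1% and 88.1% of the new-gene IDs. The fit further called 500 numbered IDs higher late that overlapped, against 301 higher early. The median difference of the separated numbered IDs, late minus early, was -2.70 log2 units for those higher early (median SE 0.55) and 2.90 for those higher late (median SE 0.59). The spread behind these SEs is that between different stages, not between replicates of a stage, and the sides were drawn with the likeness of the libraries already known. A p-value here describes how the 8 libraries fall, and a difference of stage cannot be told apart from one of library preparation or processing.

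The balance of the directions differed between scalings of the libraries. The median difference over all compared IDs was -0.36 log2 units as deposited. It was -1.29 when each library was rescaled to a sum of 1000000 and -0.10 after median-of-ratios scaling. As deposited, 58.9% of the separated numbered IDs were higher early. The share was 76.2% after rescaling (3478 against 1084 IDs) and 53.5% after median-of-ratios scaling (2378 against 2070). The 10 FPKM minimum was applied after scaling, so the numbered IDs compared also changed, from 10016 to 9369 and 9927. For new-gene IDs it moved less, from 89.0% as deposited to 92.9% after rescaling and 87.0% after median-of-ratios scaling. Of the limma calls among numbered IDs, 55.6% were higher early as deposited, 74.7% after rescaling and 50.5% after median-of-ratios scaling.

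Most separations did not turn on the scaling. Under all 3 scalings, 2375 of the 2673 numbered IDs higher early (88.9%) and 1084 of the 1866 higher late (58.1%) were separated in the same direction. Among new-gene IDs these were 873 of 952 (91.7%) and 75 of 118 (63.6%). No ID (0) was separated in opposite directions under different scalings.

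The numbered IDs higher early had similar medians in the 5 early libraries, although single IDs varied there, with a median early range of 1.31 log2 units. The median level was 42.4 FPKM in the GV oocyte, 40.0 in the MII oocyte, 44.6 in the 2-cell, 39.2 in the 4-cell and 35.9 in the 8-cell embryo. On the late side the medians were 5.86 FPKM (16-cell), 2.81 FPKM (morula) and 3.23 FPKM (blastocyst). Over all compared numbered IDs the medians lay between 13.7 and 17.6 FPKM in the 8 libraries. The IDs higher early took 41.1% to 47.5% of the FPKM sum of each early library, 5.87% of the 16-cell library, 2.26% of the morula and 1.89% of the blastocyst library. Few were listed at exactly 0 in the late libraries, 49 at 16 cells (1.83%), 414 in the morula (15.5%) and 338 in the blastocyst (12.6%). These IDs were thus chiefly at a lower level on the late side and not missing from it.

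The numbered IDs higher late mostly had values above 0 in the early libraries too. Their medians in the 5 early libraries were between 4.30 FPKM in the 4-cell embryo and 4.82 in the GV oocyte. The late medians were 40.0 FPKM (16-cell), 54.8 FPKM (morula) and 53.1 FPKM (blastocyst). In the early libraries 7.66% to 12.1% of these IDs were listed at 0, and their lower quartiles were 0.655 to 0.777 FPKM. They took 7.46% to 11.7% of the FPKM sum of an early library and 50.7%, 55.2% and 49.1% of the 16-cell, morula and blastocyst libraries.

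New-gene IDs differed from numbered ones in how low they went. Those higher early had a median of 21.9 FPKM in the GV oocyte, 13.0 in the MII oocyte, 14.7 in the 2-cell, 10.6 in the 4-cell and 11.6 in the 8-cell embryo. At 16 cells the median was 0.928 FPKM, and it was 0 in both the morula and the blastocyst, where 692 (72.7%) and 705 (74.1%) of the 952 IDs were listed at 0. In the 16-cell library 102 were (10.7%). New-gene IDs as a whole behaved alike in those libraries. Of all 10439, 81.3% were listed at 0 in the morula and 82.7% in the blastocyst, against 29.2% in the 16-cell embryo and 29.6% to 38.1% in the early libraries. What part of the new-gene separations comes from how these IDs were assembled or counted was not tested. The 118 new-gene IDs higher late had medians of 0.153 to 0.508 FPKM in the early libraries and 16.1, 18.3 and 17.9 FPKM in the 16-cell, morula and blastocyst libraries.

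**Figure D2:**
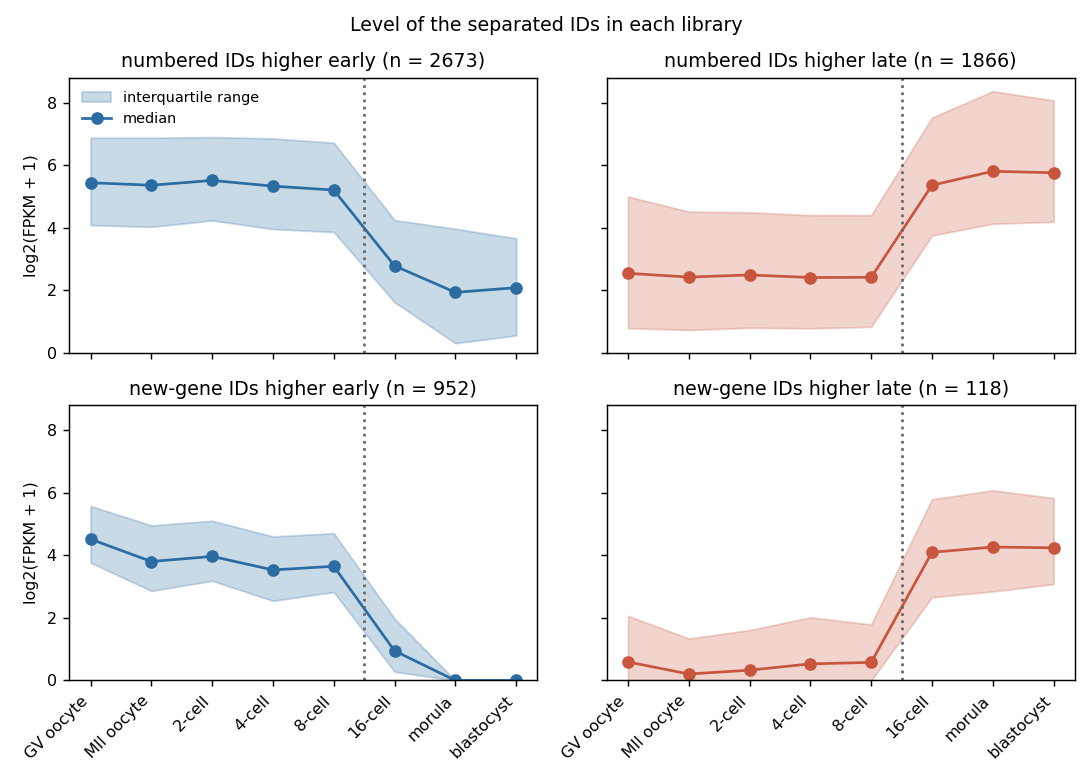
Median (points) and interquartile range over IDs (bands) of log2(FPKM + 1) in each of the 8 libraries for the separated IDs, by kind of ID and direction, with the boundary between sides as a dotted line. The 5 early medians of the numbered IDs lie between 35.9 and 44.6 FPKM for those higher early and between 4.30 and 4.82 FPKM for those higher late, and new-gene IDs higher early reach a median of 0 in the morula and blastocyst.

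Complete on-off patterns were rare among numbered IDs and made up a larger share of new-gene IDs. Of the 2673 numbered IDs higher early, 1916 were at 10 FPKM or more in all 5 early libraries. Of these 38 were under 1 FPKM in all 3 late libraries, 3 of them listed at 0 in each, while 564 stayed at 10 FPKM or more throughout. Of the 1866 higher late, 1276 were at 10 FPKM or more in all 3 late libraries. Of these 51 were under 1 FPKM in all 5 early libraries, 1 of them listed at 0 in each, and 499 were at 10 FPKM or more throughout. Among new-gene IDs higher early, of 354 at 10 FPKM or more in every early library, 60 were under 1 FPKM in every late one, and 10 stayed at 10 FPKM or more. Among those higher late, of 44 at 10 FPKM or more in every late library, 5 were under 1 FPKM in every early one and 7 were at 10 FPKM or more throughout.

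Transcripts present at every stage were found overlapping and separated in both directions. There were 2688 numbered IDs at 10 FPKM or more in all 8 libraries, of which 1625 overlapped (60.5%, against 54.7% of all compared numbered IDs), 564 were higher early and 499 higher late. Of 35 such new-gene IDs, 18 overlapped (51.4%, against 34.5% of all compared new-gene IDs), 10 were higher early and 7 higher late. The median gap of the separated numbered IDs among these was 0.76 log2 units for those higher early and 0.94 for those higher late. For the new-gene IDs it was 0.85 and 1.33. An overlap does not show an equal level. The 95% interval of the limma difference lay within 1 log2 unit of 0 for 7 of the 11650 IDs, all numbered. Among separated IDs the median SE was 0.55 to 0.66 log2 units by kind and direction. With SEs of that size an interval is too wide to pass, even around a difference of 0. The count therefore cannot show how many IDs kept their level.

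Flat levels on both sides were also uncommon. Of the 717 numbered IDs higher early with a gap of 2 or more log2 units, 77 (10.7%) had a range under 1 log2 unit within each side, as had 47 of the 487 higher late (9.65%). Among new-gene IDs these were 52 of 411 (12.7%) and 4 of 30. The late side was the more variable for numbered IDs. Over all compared numbered IDs the median range was 1.49 log2 units over the 5 early libraries and 1.85 over the 3 late ones, although more libraries give a wider range.

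The ID examples with the widest gap in each kind and direction show the pattern at its sharpest. They were chosen for that gap, so no p-value is given. Gene452, a numbered ID higher early, had 130.9 FPKM in the GV oocyte, 168.6 in the MII oocyte, 122.8 in the 2-cell, 83.8 in the 4-cell and 56.2 in the 8-cell embryo, and was listed at 0 in the 16-cell embryo, morula and blastocyst. Its level was thus lowest on the early side in the 8-cell library, and its early mean was 112 FPKM ± 43.5 (SD, n = 5 stages). Bubalus_newGene_43329, a new-gene ID higher early, had 116.9, 74.0, 107.8, 79.5 and 88.7 FPKM in the 5 early libraries, in order of stage. The 16-cell value was 1.23e-18 FPKM, and the morula and blastocyst values were listed at 0. The 5 early values had no direction from stage to stage, and their mean was 93.4 FPKM ± 18.4 (SD, n = 5 stages).

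Gene11804, a numbered ID higher late, was listed at 0 in the GV oocyte and had 2.06 FPKM in the MII oocyte, 1.12 in the 2-cell, 0.025 in the 4-cell and 0.39 in the 8-cell embryo. Its late values were 380.0 FPKM (16-cell), 358.7 FPKM (morula) and 717.7 FPKM (blastocyst). It was thus near 0 through the early side and highest in the blastocyst, with a late minus early difference of 8.21 log2 units (SE 0.53). Bubalus_newGene_41823, a new-gene ID higher late, had 1.49, 0.67, 0.17, 3.18 and 2.07 FPKM in the same 5 libraries. Its late values were 286.2 FPKM (16-cell), 301.6 FPKM (morula) and 287.5 FPKM (blastocyst). Its 3 late values were close to each other, at 292 FPKM ± 8.56 (SD, n = 3 stages), and its gap was 6.10 log2 units.

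**Figure D3:**
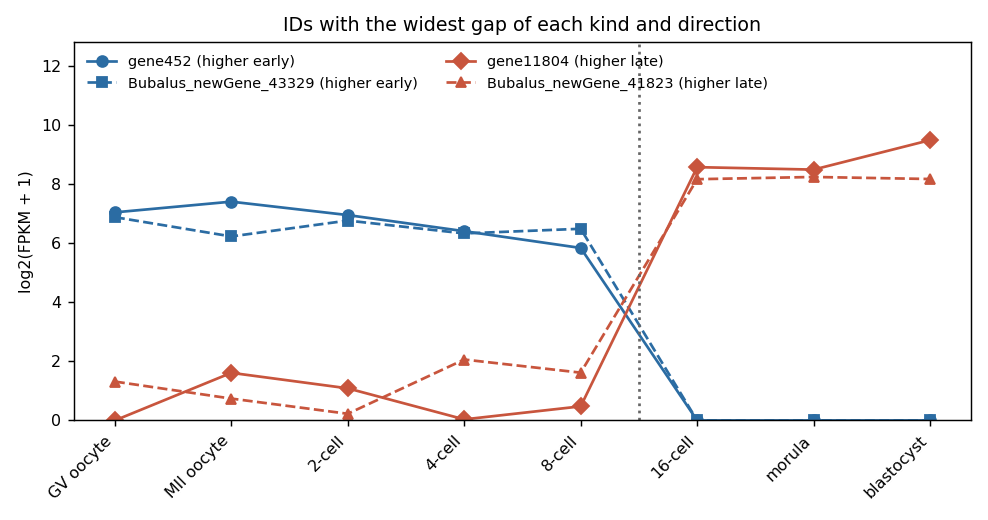
log2(FPKM + 1) in each of the 8 libraries for the numbered and the new-gene ID with the widest gap in each direction. Gene452 and Bubalus_newGene_43329 drop to 0 or nearly 0 from the 16-cell library on, and gene11804 and Bubalus_newGene_41823 are at 286.2 FPKM or more in every late library.

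The libraries of the early side were much alike and those of the late side less so. Over the 10016 numbered IDs, Pearson's r of log2(FPKM + 1) had a median of 0.89 over the 10 early pairs (0.82 to 0.95), 0.69 over the 3 late pairs (0.57 to 0.87) and 0.40 over the 15 pairs across the boundary (0.26 to 0.54). Over the 1634 new-gene IDs the medians were 0.82, 0.40 and -0.05, and the highest value across the boundary was 0.16, between the 8-cell and 16-cell libraries. These are descriptions across IDs, which share the library they were measured in and are not independent.

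Each library was then placed by IDs chosen without it. IDs with a gap of 2 or more log2 units among the other 7 libraries were taken, and the held-out value was set against the mean of each side. The 5 early libraries lay nearer to their own side for 95.8% (GV oocyte) to 99.8% (2-cell) of numbered IDs. The morula did so for 93.8% of 1356 numbered IDs and the blastocyst for 91.1% of 1440. The 16-cell library had a lower share, with 64.2% of 2364 numbered IDs nearer to the late side. These shares are not like for like. The IDs for the morula and the blastocyst were chosen with the 16-cell library on the late side, and those for the 16-cell library without it. For new-gene IDs the share was 95.3% to 99.8% in the early libraries, 98.7% in the morula, 96.3% in the blastocyst and 74.6% of 812 in the 16-cell library. Most of these IDs were higher early. For the new-gene IDs higher late alone the share was 87.2% of 39 in the morula and 70.2% of 47 in the blastocyst.

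The 16-cell library followed the late side more often for IDs that were lower late than for IDs that were higher late. It lay nearer to the late mean for 73.6% of the 1253 numbered IDs higher early and for 53.6% of the 1111 higher late. For new-gene IDs these shares were 79.6% of 721 and 35.2% of 91. The GV oocyte was the early library with the lowest share among numbered IDs higher late, 90.5% of 608, against 98.7% to 99.8% in the other 4 early libraries. All 761 numbered IDs higher early chosen without the GV oocyte lay nearer to the early side there (100%).

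**Figure D4:**
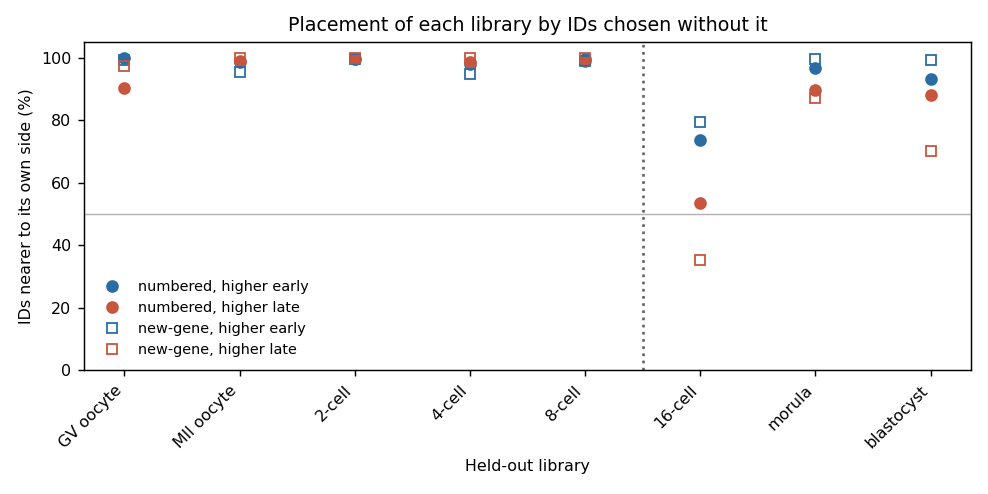
Percent of IDs (y axis) for which a held-out library (x axis) lay nearer to the mean of its own side, for IDs with a gap of 2 or more log2 units among the other 7 libraries, by kind of ID and direction. The early libraries lie at 90.5% or above in all 4 sets, and the 16-cell library lies between 35.2% and 79.6%.

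The boundary was also examined with both of its libraries left out of the choice. IDs were taken with a gap of 2 or more log2 units between the GV, MII, 2-cell and 4-cell libraries and the morula and blastocyst libraries. The 8-cell and 16-cell values were then expressed as a position from the early mean (0%) to the late mean (100%). The 8-cell embryo was at the early level. Its median position was 5.03% for the 1292 numbered IDs higher early and -1.16% for the 1141 higher late. It lay nearer to the late mean for 6 and 7 of these IDs (0.464% and 0.613%).

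The 16-cell embryo lay between the sides. For numbered IDs higher early its median position was 66.1% (interquartile range 49.0% to 83.3%), and 7.35% of these IDs were below 25%. For numbered IDs higher late the median was 55.5% and the values were spread widely. Of these IDs 346 (30.3%) were below 25%, 419 (36.7%) between 25% and 75% and 376 (33.0%) above 75%. New-gene IDs higher early were further along, at a median of 71.5% of 735 IDs, and the 95 new-gene IDs higher late were at 32.7%. In the 16-cell library the median level of the numbered IDs was 5.69 FPKM for those higher early and 25.1 FPKM for those higher late. With 1 16-cell library, an intermediate level in each embryo and a mixture of embryos or cells at either level cannot be told apart.

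**Figure D5:**
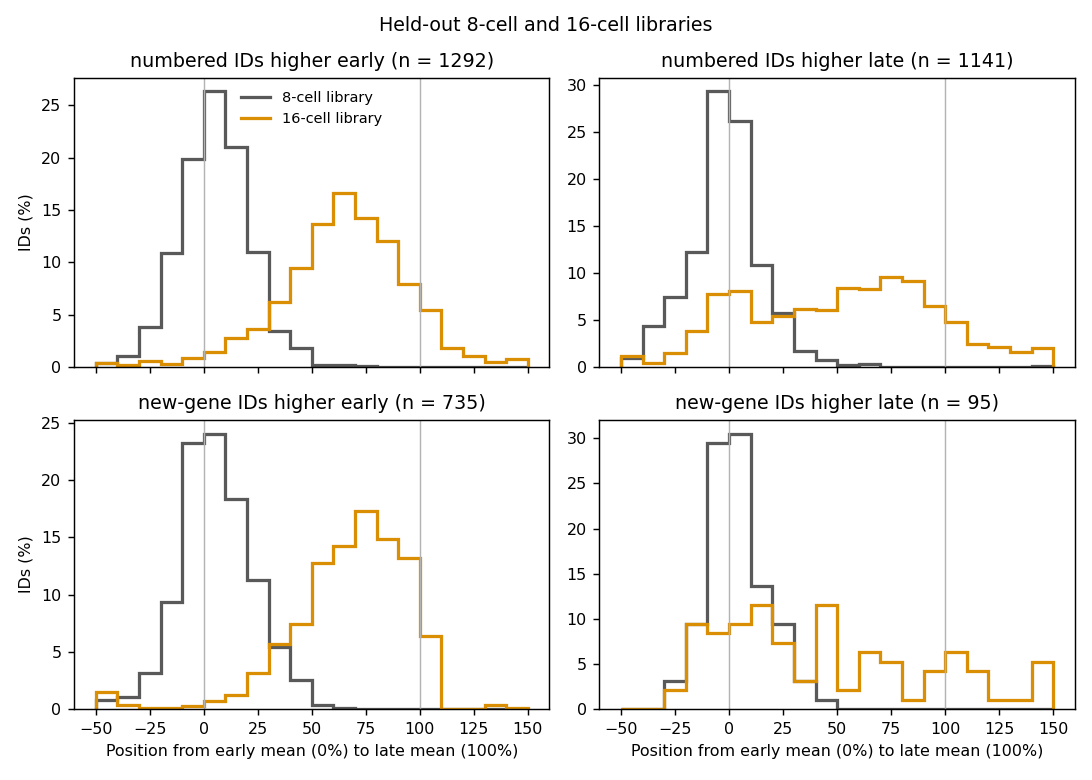
Distribution over IDs of the position of the 8-cell and 16-cell values between the early mean (0%) and the late mean (100%) on the log2(FPKM + 1) scale, in bins 10% wide, for IDs chosen without those libraries (values beyond the axis are in the end bins). The 8-cell values centre near 0% in all 4 sets, and the 16-cell values have medians of 66.1% and 55.5% for numbered IDs higher early and higher late.

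The same library set the edge of the late side for many separated IDs. It was the highest late value for 59.3% of the separated numbered IDs higher early, against 41.5% of all compared numbered IDs. It was the lowest late value for 51.4% of those higher late, against 37.9% of all. For new-gene IDs higher early it was the highest late value for 91.5%, against 79.6% of all compared. The early edge was shared more evenly among numbered IDs higher early, where the 4-cell embryo was lowest for 24.0%, the GV oocyte for 23.4%, the MII oocyte for 23.3%, the 8-cell embryo for 21.3% and the 2-cell embryo for 8.01%. For numbered IDs higher late the GV oocyte was the highest early library most often, 32.7% against 25.4% of all compared.

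Some IDs had a large difference between the side means but overlapped. There were 767 such numbered IDs, with means 2 or more log2 units apart, 206 higher early and 561 higher late. Leaving out the 16-cell library separated 531 of them, while the GV oocyte did so for 115, the blastocyst for 111 and the 2-cell embryo for 21 (an ID can count for more than 1 library). Of the 561 higher late, 392 were separated without the 16-cell library, and the number of separated numbered IDs higher late was 2771 without it.

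Some whole-library values did not overlap between the sides and others did. New-gene IDs took 5.77% ± 0.89 of the FPKM sum on the early side (SD, n = 5 stages) and 1.98% ± 1.13 on the late side (SD, n = 3 stages), with no overlap (two-sided exact permutation p = 0.0357, adjusted over 7 measures 0.0833). The 100 most abundant IDs took 31.6% ± 1.61 and 39.5% ± 4.67 of the sum, also without overlap and with the same exact p values. The FPKM sum itself did not overlap either, with the same exact p values, at 892286 to 1146980 early and 1162574 to 2501133 late. In both measures the 16-cell library was close to the highest early library. Its top 100 share was 34.4% against 33.9% in the MII oocyte, and its sum 1162574 against 1146980 in the GV oocyte. The morula and blastocyst sums were 2501133 and 2239886. The smallest p that 56 splits allow is 0.0357, and none of the 7 measures passed after adjustment. With that floor, an adjusted p under 0.05 was possible only if most of the 7 measures had no overlap. The adjusted values therefore say little about the measures without overlap. The number of new-gene IDs at 1 FPKM or more was 2990 to 4039 early, 4103 at 16 cells, and 724 and 681 in the morula and blastocyst (exact permutation p = 0.214, adjusted 0.300). The morula and blastocyst were thus below every early library and the 16-cell library above every one. Numbered IDs at 1 FPKM or more were 11095 ± 99.1 early and 10936 ± 1028 late (SD, exact permutation p = 0.571, adjusted 0.571).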

How the data were processed

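The authors deposited 1 table of FPKM values, per the file's name, with a column per library. No label or header names the aligner, annotation, build or filters, and depth is unknown. Columns were tied to stages through the labels. IDs that reached 10 FPKM in 1 or more libraries were taken to log2(FPKM + 1), so differences of low IDs are understated. Sides were compared by overlap and with limma 3.58.1 (R 4.3.3, mean-variance trend, 1 fit over all 11650 IDs, Benjamini-Hochberg adjusted p under 0.05). The fit was also run on simulated data with independent libraries. Stages in sequence need not be independent, so that run cannot show that the p-values hold here. Whole-library values were compared with two-sided exact permutation tests (scipy 1.17.1). Stages are the units, since there is 1 library per stage, and no replicate error is known. The sides are a grouping made for this comparison, not groups named by the study. The members, lists and rules were chosen with earlier results of these data known. Because the IDs carry no symbols, at most 2 IDs per direction were named, the numbered and the new-gene ID with the greatest gap among IDs at 10 FPKM or more throughout the higher side. The alternatives were other pseudocounts, minimums, scalings, gaps and limma settings, and leaving out libraries.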

Additional observations from a re-analysis of the deposited data

Results flagged for a closer look

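Of 11 sets of 5 early values checked for a sample far from the others, 2 were past Dixon's 95% critical value, and chance gives about 1 in 20. The number of new-gene IDs at 1 FPKM or more was 4039 in the GV oocyte against 2990 to 3130 in the other 4 early libraries (gap over range 0.867). The percent of new-gene IDs listed at 0 was 38.1% in the MII oocyte against 29.6% to 31.3% in the other 4 (gap over range 0.806).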

How the results depend on the processing

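Leaving out the morula and blastocyst libraries and requiring separation under all 3 scalings were added after seeing the data. A stricter gap leaves fewer separated IDs by construction, as a higher minimum does, and no minimum leaves more. Leaving out libraries moved counts either way, as the minimum was applied to the libraries that remained. New-gene IDs separated higher early were 952 with all libraries, 807 without the GV oocyte and 1066 without the 16-cell library. Numbered IDs called higher late by limma were 2248 with all libraries and 1685 without the morula. With a gap of 1 or more log2 units, 1519 numbered IDs were higher early and 992 higher late, and 60 new-gene IDs higher late; with 2 or more, 717, 487 and 30, and 411 new-gene IDs higher early. Rescaling to a sum of 1000000 left 1084 numbered and 75 new-gene IDs separated higher late, as did requiring all 3 scalings (1084 and 75), and 1312 and 91 limma calls. With no minimum 3183 new-gene IDs were separated higher early (2078 limma calls) and 252 higher late; with a minimum of 30 FPKM 427 (449 calls) and 67 (94 calls). Without the 8-cell and 16-cell libraries 2806 numbered IDs were separated higher late. Without the morula and blastocyst libraries 318 new-gene IDs were separated higher late, with 255 calls, and limma called 593 higher early; the late side is then the 16-cell library alone, which is assumed to vary like the 5 early ones. Among leave-one-out fits no count of separated or called IDs moved by over 1.5 times. The difference in numbered IDs at 1 FPKM or more, late minus early, ran from -692 (16-cell library left out) to 333 (morula left out), so its sign turned. Held-out shares at a gap of 1 or more were 93.9% (GV), 96.5% (MII), 96.3% (4-cell), 98.3% (8-cell), 90.1% (morula) and 86.4% (blastocyst) for numbered IDs, and 92.4% (4-cell) and 96.8% (8-cell) for new-gene IDs. In the boundary sets after rescaling, the 16-cell library lay nearer the late mean for 68.6% of numbered IDs higher early and 57.2% higher late. As deposited these were 74.1% and 54.8%, so the contrast between directions was smaller after rescaling. For new-gene IDs they were 80.5% and 45.3% after rescaling, against 79.3% and 36.8%. The 8-cell library lay nearer the late mean for 1.46% of numbered IDs higher late after rescaling. For the remaining shifts the cause was not tested. The named IDs kept their direction under every alternative run, but they were chosen for the widest gap, which made this likely in advance. No paired analysis was possible because the labels number no replicates. Depth is unknown, so how far counting limits low values cannot be given.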
